A study of Mus musculus with 30 samples.

Results

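The 36 genes described here encode aminoacyl-tRNA synthetases, 20 of them cytosolic and 16 mitochondrial. They were chosen by gene symbol, with no threshold on measured values, from the 57186 genes of the deposited count table, and each symbol matched 1 row. Kars and Gars are counted as cytosolic, although each is known to supply an enzyme to both compartments, and Eprs makes 1 protein that charges both glutamate and proline. The study followed RNA in 2 mouse lines during exposure to cycloheximide, a compound that stops the ribosome during elongation, at 0.1 µg/mL. NIH/3T3 is an established line of fibroblasts, kept in DMEM with fetal bovine serum. CGR8 cells are mouse embryonic stem cells, kept in N2B27 with 2i and LIF added. The 2 lines carried the genotype given as a ROSA26 SLT knock-in, so no group lacked it, and every group was of 1 line only. Libraries were made with a stranded mRNA kit at 0, 1, 2, 5 and 48 h, with 3 replicates, A, B and C, in each of the 10 groups. The times are those of the sample titles. The treatment label names cycloheximide for all 30 libraries, those at 0 h included. The 0 h libraries were the comparison group within each line, and no library of cells kept for 48 h without the compound was used here, so that time in culture and time in cycloheximide cannot be told apart.

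Aminoacyl-tRNA synthetases attach each amino acid to its tRNAs, the step that makes amino acids usable by the ribosome. Mammalian cells keep separate nuclear genes for most cytosolic and mitochondrial enzymes. The cytosolic ones supply translation of nuclear mRNAs, and the mitochondrial ones, imported after synthesis, supply translation of the few proteins that mitochondrial DNA encodes. Several cytosolic synthetases sit together in a multi-synthetase complex held by scaffold proteins. Uncharged tRNA is known to activate the kinase GCN2, which leads to the transcription factor ATF4, and many cytosolic synthetase genes are known ATF4 targets. Mitochondrial synthetase genes are not usually counted among them.

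ATF4 with a C/EBP partner binds an element with the core TGATGNAA, and the promoter windows of the members were searched for these letters on both strands, from 250 bases before to 50 bases after the start site, in RefSeq windows of GRCm38.p6. Of all 32851 mouse windows, 1304 (3.97%) held a match. A window was found for 13 cytosolic members, of which 5 held a match, and for 14 mitochondrial members, of which 0 held one. The narrower form TGATGCAA, which every TGATGNAA search also finds, was present in 0.895% of all windows, in 4 of the 13 cytosolic windows and in 0 of the 14 mitochondrial ones. The stretches around all matches in these 5 genes are shown, and the 5 h log2 changes of the genes are given later. Each is printed 5′ to 3′ on the gene's own strand, with the match in capitals, and a match that reads as TTNCATCA is TGATGNAA on the opposite strand. The first Aars stretch lay at chr8:111033690-111033777 on the plus strand, the second at chr8:111033811-111033861, Gars at chr6:55037931-55038018 on the plus strand, Iars at chr13:49682097-49682149 on the plus strand, Tars at chr15:11399639-11399713 on the minus strand and Yars at chr4:129189866-129189922 on the plus strand.
Aars: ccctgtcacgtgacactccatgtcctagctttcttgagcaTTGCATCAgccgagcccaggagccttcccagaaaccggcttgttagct
Aars: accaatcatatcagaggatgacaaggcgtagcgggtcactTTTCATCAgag
Gars: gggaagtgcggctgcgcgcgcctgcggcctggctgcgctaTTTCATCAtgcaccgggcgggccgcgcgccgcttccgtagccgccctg
Iars: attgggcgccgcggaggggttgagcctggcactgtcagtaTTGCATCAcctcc
Tars: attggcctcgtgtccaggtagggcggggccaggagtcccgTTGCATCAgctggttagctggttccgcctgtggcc
Yars: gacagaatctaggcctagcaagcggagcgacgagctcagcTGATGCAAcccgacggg
Of the 5 genes, 4 held the narrower form and Gars held TGATGAAA only, while Aars had a match before its start site and another just after it. A match is a description of the letters, and binding by any factor was not measured.

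The 30 libraries held 18.2 M to 30.5 M counts each, and all 36 members passed the filter on low counts in both lines. The labelled lines carried their own markers. The summed level of 6 stem cell markers was 4242 to 7200 CPM (counts scaled to a common library total) in CGR8 libraries and at most 0.545 CPM in NIH/3T3 libraries. The sum of 6 fibroblast markers was 4062 to 10245 CPM in NIH/3T3 libraries, from its collagen and Lox members, and 2.03 to 5.07 CPM in CGR8 libraries. The stem cell sum moved with time, from 4242 to 4524 CPM at 0 h to 5953 to 7200 CPM at 5 h in CGR8, and the fibroblast sum from 6576 to 7303 CPM at 0 h to 4253 to 4860 CPM at 5 h and 10073 to 10245 CPM at 48 h in NIH/3T3. The part of this in the synthetase results was not tested, and in bulk RNA fewer cells of a type and less RNA per cell cannot be told apart. Libraries CGR8 2 h A, NIH/3T3 1 h C, NIH/3T3 2 h A and CGR8 0 h B stood farthest from the other replicates of their groups. Nothing in the labels says that replicates came from separate cultures, so p-values measure only the spread between these libraries, which may be technical.

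At 0 h the cytosolic synthetase mRNAs were more abundant per length than the mitochondrial ones in both lines. Divided by coding length, the median level at 0 h was 98.4 CPM per kb over the cytosolic members and 11.2 CPM per kb over the mitochondrial members in NIH/3T3, and 131 against 19.4 CPM per kb in CGR8. The 2 ranges did not overlap by this measure in either line. In NIH/3T3 the lowest cytosolic member, Mars, the methionyl enzyme, stood at 40.9 ± 2.86 CPM per kb (SD, n = 3), beside 40.03 ± 0.580 for Yars2, the mitochondrial tyrosyl enzyme and the highest of its compartment. These neighbours did not differ beyond their spread. Kars, the lysyl enzyme, was highest in both lines, at 274 ± 9.04 CPM per kb in NIH/3T3 and 367 ± 61.0 in CGR8. The lowest cytosolic member of CGR8 was Cars, the cysteinyl enzyme, at 61.7 ± 0.181 CPM per kb, and the highest mitochondrial member was Lars2, the mitochondrial leucyl enzyme, at 53.8 ± 7.45. With exon length in place of coding length, the 2 ranges overlapped in NIH/3T3: Eprs moved from rank 15 to rank 21 of 36, below Yars2 at rank 20.

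Most members were higher in CGR8 than in NIH/3T3 at 0 h. Of the 20 cytosolic members 16 were higher and 2 lower, and of the 16 mitochondrial members 10 were higher and 4 lower, called by edgeR's quasi-likelihood test at a Benjamini-Hochberg adjusted p under 0.05 over all genes. Of all 17549 genes tested, 79.1% were called in this comparison, 42.8% higher and 36.3% lower in CGR8. Fits without 1 library of the 2 groups kept 12 of the 16 higher and 1 of the 2 lower cytosolic calls throughout. Among mitochondrial calls they kept 9 of the 10 higher and 2 of the 4 lower. Ears2, called lower, was lost in 5 of these 6 fits and Rars, also called lower, in 2, and both were lost with DESeq2 in place of edgeR. The median log2 difference was 0.37 over the cytosolic members, 0.75 over the mitochondrial members and 0.15 over all genes. Cars2, the mitochondrial cysteinyl enzyme, stood at 13.3, 12.5 and 13.5 CPM in the NIH/3T3 libraries and 56.3, 74.7 and 59.6 CPM in the CGR8 libraries. All 3 CGR8 values lay above all 3 NIH/3T3 values (log2 fold change 2.27, SE 0.13, adjusted p = 3.24e-15). Sars2, the mitochondrial seryl enzyme, stood at 13.5, 10.9 and 12.998 CPM in NIH/3T3 and 53.2, 50.5 and 49.8 CPM in CGR8, again with no overlap (log2 fold change 2.04, SE 0.13, adjusted p = 1.17e-14). Iars2, Aars2 and, among cytosolic members, Aars and Mars were also over 2-fold higher in CGR8, with log2 differences of 1.93, 1.47, 1.53 and 1.45. So was Rars2, at 24.9, 24.7 and 25.9 CPM in NIH/3T3 and 55.5, 60.05 and 58.8 CPM in CGR8. Against this, Mars2, the mitochondrial methionyl enzyme, was lower in CGR8, at 25.6, 24.01 and 24.03 CPM beside 38.8, 43.4 and 37.7 CPM in NIH/3T3 (log2 fold change -0.70, SE 0.10, adjusted p = 2.34e-07). Hars, the cytosolic histidyl enzyme, was lower in CGR8 as well, at 107, 134 and 108 CPM beside 149, 144 and 154 CPM (log2 fold change -0.36, SE 0.11, adjusted p = 0.00491). The Hars values did not overlap, although CGR8 replicate B lay close to the NIH/3T3 range. Of the Iars2 exons as annotated, 24.2% overlap Rab3gap2 and 2010103J01Rik on the opposite strand. Whether the counting used strand is not given, so reads there may be shared.

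Over the time course the 2 compartments moved apart in both lines. In NIH/3T3 the median over the cytosolic members of log2 CPM, relative to the 0 h mean, was -0.35 to -0.31 in the 5 h libraries and -0.38 to -0.30 in the 48 h libraries, against -0.04 to 0.05 at 0 h. The same median over the mitochondrial members was 0.03 to 0.18 at 5 h and 0.24 to 0.31 at 48 h, against -0.02 to 0.04 at 0 h. In CGR8 the mitochondrial median was 0.14 to 0.45 at 5 h and 0.21 to 0.29 at 48 h, against -0.03 to 0.02 at 0 h. The CGR8 cytosolic median ranged from -0.27 to 0.09 at 5 h and from -0.03 to 0.05 at 48 h, inside or across its 0 h range of -0.11 to 0.16. So the separation in CGR8 came with a higher mitochondrial median and a cytosolic median that overlapped its 0 h range. The cytosolic median minus the mitochondrial median was negative in each of the 24 libraries after 0 h. At 0 h this difference was -0.036 to 0.027 in NIH/3T3 and -0.12 to 0.15 in CGR8, so its sign alone does not set a library apart from 0 h. CGR8 2 h replicate A, at -0.05, lay inside its 0 h range, and NIH/3T3 2 h replicate A, at -0.041, lay just below its own.

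**Figure D1:**
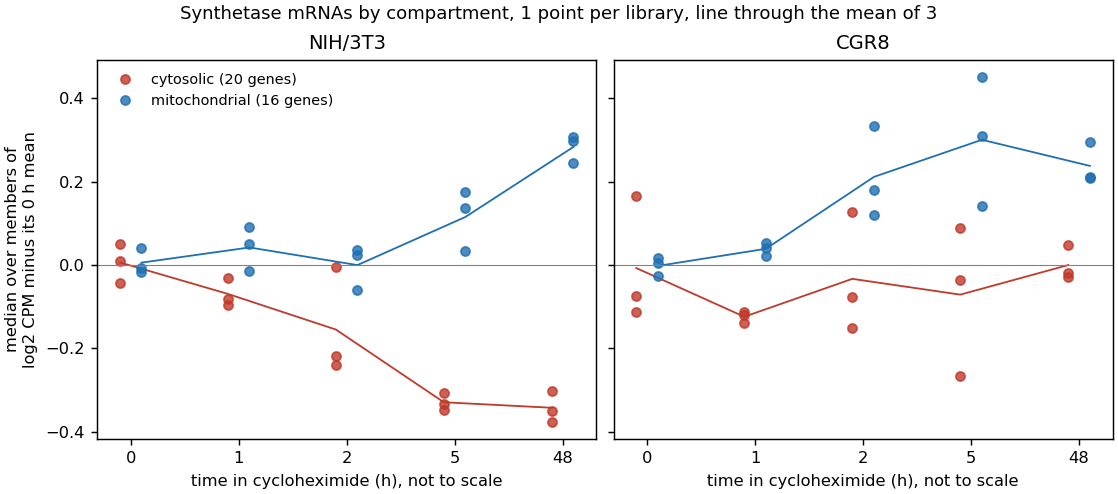
Median over the 20 cytosolic (red) and 16 mitochondrial (blue) synthetase genes of log2 CPM minus the gene's 0 h mean, on the vertical axis, by hours in cycloheximide (not to scale), in NIH/3T3 (left) and CGR8 (right). Each point is 1 library and lines join the means of 3; at 5 h the NIH/3T3 cytosolic points sit at -0.35 to -0.31 and the mitochondrial points at 0.03 to 0.18.

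Summed over members, the same shift appears in the share of counts. The cytosolic sum divided by the mitochondrial sum, both in CPM and not corrected for length, was 10.3 ± 0.338 (SD, n = 3) in NIH/3T3 at the start, 9.70 ± 0.525 after 1 h, 9.06 ± 0.541 after 2 h, 7.46 ± 0.145 after 5 h and 6.42 ± 0.127 after 48 h. In CGR8 the ratio started at 9.10 ± 0.525, was 8.79 ± 0.154 after 1 h and 8.48 ± 0.802 after 2 h, and reached 6.53 ± 0.114 after 5 h and 7.19 ± 0.267 after 48 h. The 5 h and 48 h libraries of both lines all lay below the lowest 0 h library, 9.94 in NIH/3T3 and 8.57 in CGR8. Lars2 made up a large part of the mitochondrial sum. Without it the ratio was 13.4 ± 0.373 at 0 h, 8.72 ± 0.144 at 5 h and 7.66 ± 0.120 at 48 h in NIH/3T3, and 11.2 ± 0.841, 8.35 ± 0.597 and 8.30 ± 0.207 in CGR8, so groups did not overlap without Lars2 either.

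At 1 h no member was called in either line by edgeR. Of all genes, 0.732% were called in NIH/3T3 (0.653% higher, 0.0789% lower) and 0.270% in CGR8 (0.144% higher, 0.126% lower) at that time. At an unadjusted p under 0.05 there were 1 cytosolic and 2 mitochondrial members in NIH/3T3 and 0 and 4 in CGR8. DESeq2 called 0 members at 1 h in both lines, and limma's voom with quality weights called 7 in NIH/3T3 and 4, all mitochondrial, in CGR8. Every fitted change of a NIH/3T3 member at 1 h lay between -0.25 and 0.28 on the log2 scale. In CGR8 the range was -0.21 to 0.05 over the cytosolic members and -0.71 (Lars2) to 0.42 (Mars2) over the mitochondrial ones.

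At 2 h in NIH/3T3, 6 cytosolic members fell and 1 rose, and 3 mitochondrial members rose and 2 fell. Of all 13941 genes tested 35.0% were called, 16.1% higher and 18.9% lower. The cytosolic members that fell were Vars (-0.53), Iars (-0.45), Eprs (-0.43), Aars (-0.35), Qars (-0.24) and Farsb (-0.24), as fitted log2 changes. The Vars, Iars and Eprs calls held in every fit. Of the 6 fits without 1 library of the 2 groups, the Aars and Qars calls were each lost in 4 and the Farsb call in 5. A fit of the 2 groups alone lost the calls of Aars, Qars and Farsb as well. Only Dars, the aspartyl enzyme, rose among the cytosolic members, from 212, 224 and 203 CPM at 0 h to 260.2, 285 and 276 CPM at 2 h (log2 fold change 0.39, SE 0.10, adjusted p = 0.00655). In CGR8 at 2 h, 0 cytosolic members were called by edgeR, 4 had an unadjusted p under 0.05 and DESeq2 called 3, while 5 mitochondrial members rose and 2 fell. There 19.9% of all 15933 genes were called, 8.97% higher and 11.0% lower. The NIH/3T3 cytosolic count became 11 without 2 h replicate A, and 4 without 0 h replicate A or C or without 2 h replicate B or C, and the mitochondrial count became 2 or 3 without those same 4 libraries. The CGR8 cytosolic count became 2 without 2 h replicate A and 4 without 2 h replicate B, and the mitochondrial count became 3 without 2 h replicate C.

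By 5 h most cytosolic synthetase genes had fallen in NIH/3T3: 12 of 20 were lower, 2 were higher and 6 did not pass the test. Of all genes 51.0% were called, 24.0% higher and 27.1% lower, and among the 4520 genes whose mean reached 50 CPM, a level that all 20 cytosolic members reached, 26.3% were higher and 33.2% lower. The median log2 change was -0.30 over the cytosolic members and -0.01 over all genes. All 3 libraries at 5 h lay below all 3 at 0 h for 16 cytosolic members and above them for 2, beside 36.6% and 30.2% of all genes. Aars, the alanyl enzyme, stood at 328, 297 and 343 CPM at 0 h and 140.0, 124 and 142 CPM at 5 h. The 5 h libraries were all below the 0 h libraries (log2 fold change -1.22, SE 0.12, adjusted p = 1.08e-06), and at 48 h the values were partly back, at 244, 237 and 245 CPM. Vars, the valyl enzyme, went from 296, 271 and 316 CPM to 171, 182 and 179.8 CPM at 5 h without overlap (log2 fold change -0.70, SE 0.13, adjusted p = 0.000431). Cars went from 129, 124 and 141 CPM to 83.01, 78.7 and 79.6 CPM at 5 h (log2 fold change -0.67, SE 0.08, adjusted p = 5.44e-06) and 65.3, 61.1 and 60.4 CPM at 48 h, each group below the one before. Smaller falls at 5 h were those of Nars (-0.65), Iars (-0.64), Qars (-0.53), Eprs (-0.48), Farsb (-0.38), Mars (-0.37), Wars (-0.31), Tars (-0.29) and Lars (-0.19). The Lars call was lost in each of the 6 fits without 1 library of the 2 groups, and the Wars call without 0 h replicate A or C or without 5 h replicate C, so that 10 of the 12 falls held in all of these fits. Part of the Aars gene as annotated, 14.3% of its exons, overlaps Exosc6 on the same strand, and reads from there cannot be assigned.

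Dars and Rars went the other way in NIH/3T3. Dars reached 326, 336 and 313 CPM at 5 h, above every 0 h and 2 h library (log2 fold change 0.64, SE 0.10, adjusted p = 5.78e-05). Rars, the arginyl enzyme, went from 339.6, 334 and 349 CPM at 0 h to 428, 432 and 403 CPM at 5 h with no overlap (log2 fold change 0.34, SE 0.08, adjusted p = 0.00149). Both enzymes are known members of the multi-synthetase complex, and at 48 h the fit gave 0.18 for Dars, not called, and -0.25 for Rars, a fall.

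After 48 h, 16 of 20 cytosolic members were lower and 1 higher in NIH/3T3, with a median log2 change of -0.37. Of all genes 52.3% were called, 26.7% higher and 25.6% lower, with a median of -0.01, and among the same 4520 genes whose mean reached 50 CPM 22.3% were higher and 36.7% lower, with a median of -0.12. The 48 h libraries lay wholly below 0 h for 16 cytosolic members and above for 2, beside 32.8% and 37.1% of all genes. Of the 16 falls, 15 held in every fit without 1 library and 13 held under the other alternatives as well. The Tars fall was lost in 3 of the 6 fits without 1 library, under library size scaling and without the filter on low counts. The Lars and Rars falls were lost without that filter. Cars fell most among the members (log2 fold change -1.11, SE 0.08, adjusted p = 2.73e-08). Gars, the glycyl enzyme, stood at 281, 291 and 309 CPM at 0 h, 256, 254 and 241 CPM at 5 h and 178, 166 and 158 CPM at 48 h. Its 48 h libraries lay below all others of that line (log2 fold change -0.84, SE 0.11, adjusted p = 1.75e-05), although at 5 h the change had not passed the test (-0.20). Vars was the 1 member that rose, to 382, 375 and 383 CPM, above every 0 h and 5 h library (log2 fold change 0.34, SE 0.13, adjusted p = 0.0414). That call was lost without 0 h replicate A or B or without any 1 of the 48 h replicates, with adjusted p up to 0.137. Eprs, Wars and Dars, at -0.05, 0.02 and 0.18, did not pass the test.

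In CGR8 fewer cytosolic members were called at 5 h: 8 of 20 fell and 2 rose, with a median log2 change of -0.11. Of all genes 52.1% were called, 24.9% higher and 27.2% lower, and the median over all genes was -0.01. In CGR8 4094 genes had a mean of at least 50 CPM, a level that all 20 cytosolic members reached. Of these genes 29.1% were higher and 32.3% lower, with a median of -0.05. Groups did not overlap for 7 cytosolic members that were lower and 2 that were higher, beside 27.0% and 27.6% of all genes. Iars, the isoleucyl enzyme, stood at 409.7, 459 and 448 CPM at 0 h and 212, 294 and 276 CPM at 5 h, all lower (log2 fold change -0.81, SE 0.12, adjusted p = 4.87e-05). Aars went from 850.5, 1062 and 883 CPM to 628, 661 and 521 CPM, again without overlap (log2 fold change -0.68, SE 0.14, adjusted p = 0.000751). Dars rose as in NIH/3T3, from 245, 281 and 264 CPM to 369, 463 and 438 CPM (log2 fold change 0.63, SE 0.11, adjusted p = 0.000165). Rars went from 269, 317 and 293 CPM to 378, 371 and 328 CPM (log2 fold change 0.24, SE 0.09, adjusted p = 0.0406), a call that was lost with library size scaling, without the filter on low counts, in a fit of the 2 groups alone and without 0 h replicate A or C or 5 h replicate A or B, with adjusted p up to 0.303. The other falls were Eprs (-0.50), Nars (-0.45), Vars (-0.41), Farsb (-0.38), Cars (-0.34) and Wars (-0.33). Of these, the Cars call was lost without 5 h replicate C, Farsb without 0 h replicate B and Wars without 0 h replicate B or 5 h replicate A or C. The Wars call was lost as well under RLE scaling, DESeq2, the 5 CPM filter, voom quality weights and a fit of the 2 groups alone.

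At 48 h in CGR8, 6 cytosolic members were lower, 2 higher and 12 not called, with a median log2 change of 0.00. Of all genes 27.8% were called, 12.2% higher and 15.6% lower. Among the same 4094 genes whose mean reached 50 CPM, 11.2% were higher and 13.8% lower, with a median of 0.01. Groups did not overlap for 8 cytosolic members that were lower and 4 that were higher, beside 24.3% and 24.4% of all genes. Aars stood at 577, 495 and 465 CPM, below every 0 h library (log2 fold change -0.87, SE 0.14, adjusted p = 0.00024). Cars followed at 110.1, 90.3 and 85.01 CPM beside 154, 154 and 153 CPM at 0 h (log2 fold change -0.70, SE 0.11, adjusted p = 0.000144). The other 4 that fell were Sars (-0.59), Yars (-0.52), Gars (-0.51) and Nars (-0.51), and the first 3 of these calls were lost without 0 h replicate B, one of the libraries that stood apart. Dars at 342, 363 and 353 CPM and Rars at 363, 422 and 378 CPM lay above their 0 h libraries, with log2 changes of 0.41 (SE 0.11, adjusted p = 0.00888) and 0.39 (SE 0.09, adjusted p = 0.00477).

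**Figure D2:**
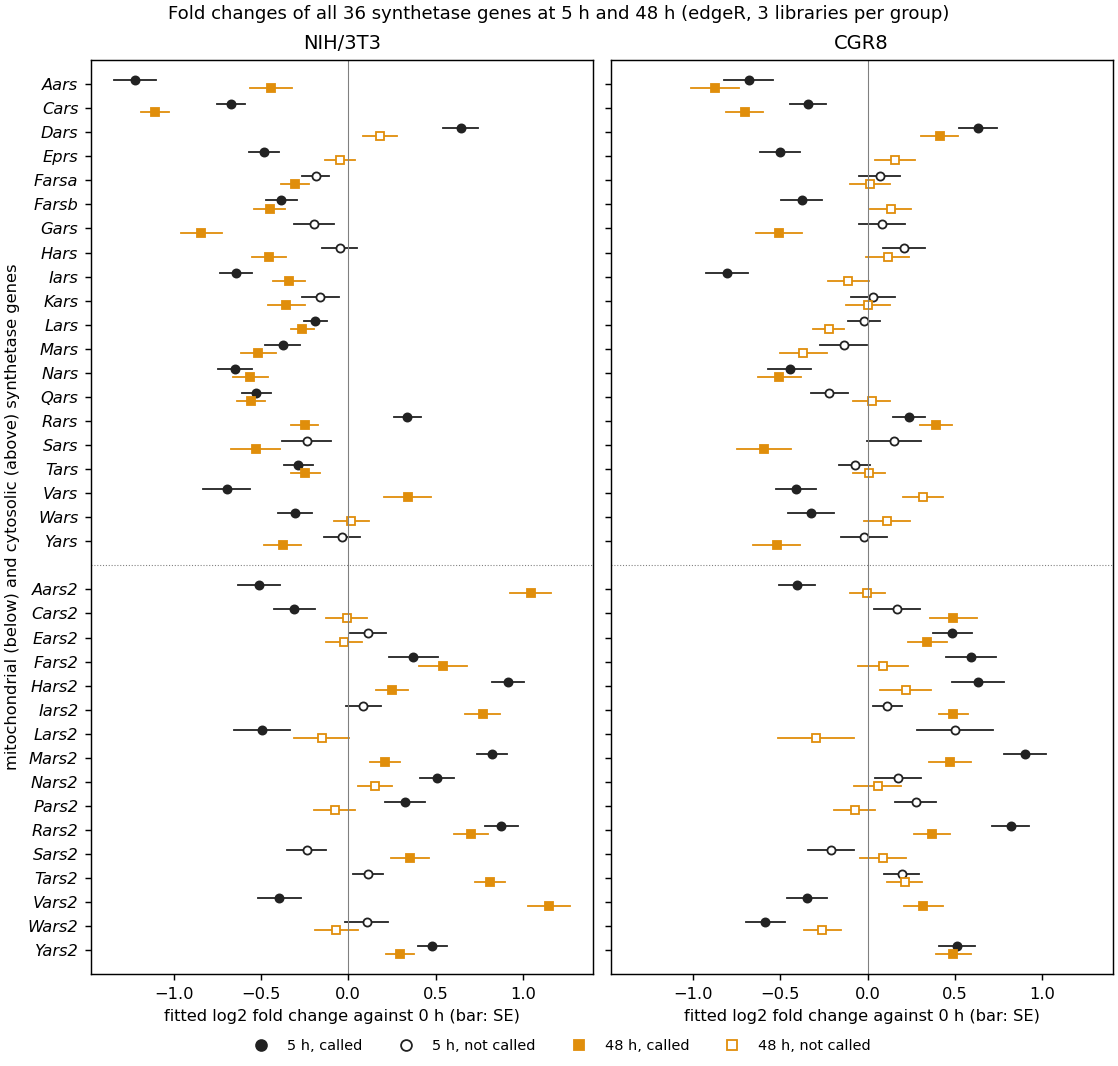
Fitted log2 fold change against 0 h (horizontal axis, bars are ± 1 SE) of all 36 synthetase genes at 5 h (black circles) and 48 h (orange squares) in NIH/3T3 (left) and CGR8 (right), 3 libraries per group. Filled symbols passed an adjusted p under 0.05 by edgeR; among the cytosolic genes at 5 h, 12 fell and 2 rose in NIH/3T3, and 8 fell and 2 rose in CGR8.

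The cytosolic members were also read by complex, by structural class and by their place among ATF4 targets. Of the 8 synthetases of the multi-synthetase complex, 5 fell and 2 rose at 5 h in NIH/3T3, and 2 fell and 2 rose in CGR8. Of all genes 27.1% fell and 24.0% rose at that time in NIH/3T3, and 27.2% and 24.9% in CGR8, so the CGR8 shares of the complex are close to those of all genes. Of the 12 others, 7 fell and 0 rose in NIH/3T3, and 6 fell and 0 rose in CGR8. Class I and class II are the 2 unrelated folds of these enzymes, with 10 cytosolic members counted in each. Eprs, which charges both glutamate and proline and so spans the 2 classes, was counted in class I only. Its falls at 5 h are therefore among those of class I. In class I 8 fell and 1 rose in NIH/3T3 at 5 h, and 5 fell and 1 rose in CGR8. In class II 4 fell and 1 rose in NIH/3T3, and 3 fell and 1 rose in CGR8. Among 12 cytosolic synthetases listed as known ATF4 targets (Aars, Cars, Eprs, Gars, Iars, Lars, Mars, Nars, Sars, Tars, Wars and Yars), 9 fell and 0 rose at 5 h in NIH/3T3, and 6 fell and 0 rose in CGR8. At 48 h 10 of these 12 fell in NIH/3T3 and 6 in CGR8, with 0 rising in either line. Of all genes 25.6% fell and 26.7% rose at 48 h in NIH/3T3, and 15.6% and 12.2% in CGR8. Of the 8 cytosolic synthetases outside that list, 3 fell and 2 rose at 5 h in NIH/3T3, 2 fell and 2 rose in CGR8, and at 48 h 6 fell and 1 rose in NIH/3T3 while 0 fell and 2 rose in CGR8. These sub-lists overlap and were not tested against each other. The 5 genes whose promoter stretches are printed had 5 h log2 changes of -1.22 (Aars), -0.20 (Gars), -0.64 (Iars), -0.29 (Tars) and -0.04 (Yars) in NIH/3T3, and -0.68, 0.08, -0.81, -0.08 and -0.02 in CGR8. Gars and Yars were not called in either line at 5 h, and Tars was not called in CGR8.

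Among the mitochondrial members of NIH/3T3, 7 rose and 4 fell at 5 h, with a median log2 change of 0.11. Beside the 24.0% of all genes that were higher and 27.1% that were lower, the share of members that fell was close to that of all genes. Hars2, the mitochondrial histidyl enzyme, stood at 21.1, 23.4 and 20.8 CPM at 0 h and 40.6, 40.4 and 39.2 CPM at 5 h. Its levels at 5 h lay above all 0 h, 1 h and 2 h libraries (log2 fold change 0.91, SE 0.09, adjusted p = 1.18e-06). Rars2, the mitochondrial arginyl enzyme, went from 24.9, 24.7 and 25.9 CPM to 45.1, 46.5 and 43.7 CPM (log2 fold change 0.88, SE 0.10, adjusted p = 2.57e-06). Mars2 went from 38.8, 43.4 and 37.7 CPM to 68.5, 71.3 and 67.5 CPM (log2 fold change 0.82, SE 0.08, adjusted p = 1.37e-06). Each of these 3 genes rose without overlap. Nars2 (0.51), Yars2 (0.48), Fars2 (0.37) and Pars2 (0.32) made up the other 4 rises. The count of mitochondrial calls became 7 without 0 h replicate A or without 5 h replicate B or C. Pars2 was lost in 5 of those 6 fits and Fars2 in 3, and Hars2, Rars2, Mars2, Nars2 and Yars2 in 0. Hars and Hars2 overlap by 195 bases on opposite strands.

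The 4 mitochondrial members that fell at 5 h in NIH/3T3 were Aars2, Vars2, Lars2 and Cars2. Aars2, the mitochondrial alanyl enzyme, stood at 23.5, 21.5 and 24.7 CPM at 0 h, 20.6, 16.6 and 16.7 CPM at 2 h and 16.1, 15.2 and 16.4 CPM at 5 h (log2 fold change -0.51, SE 0.12, adjusted p = 0.00189), and then at 48.4, 44.8 and 53.3 CPM at 48 h (log2 fold change 1.04, SE 0.12, adjusted p = 2.05e-06). Vars2, the mitochondrial valyl enzyme, had the same course, with 15.9, 16.7 and 16.97 CPM at 0 h, 14.2, 11.5 and 10.8 CPM at 2 h, 12.97, 11.03 and 12.9 CPM at 5 h (-0.39) and 39.1, 34.4 and 38.8 CPM at 48 h (log2 fold change 1.15, SE 0.12, adjusted p = 1.27e-06). In both genes the 48 h libraries were the highest and the 2 h and 5 h libraries lay below 0 h. The falls at 2 h (-0.34 and -0.41) were lost without 0 h replicate C or 2 h replicate B or C, and that of Aars2 also without 0 h replicate A, while the Vars2 fall at 5 h was lost only without 5 h replicate B. The Cars2 fall (-0.31) was lost in all 6 fits without 1 library and under RLE scaling, DESeq2 and no filter.

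At 48 h in NIH/3T3 no mitochondrial member was called lower by edgeR and 10 of 16 were higher, with a median log2 change of 0.27, beside 26.7% of all genes higher and 25.6% lower. At an unadjusted p under 0.05 the counts were the same, 10 higher and 0 lower. Beside Vars2 and Aars2, the rises were Tars2 (0.81), Iars2 (0.77), Rars2 (0.70), Fars2 (0.54), Sars2 (0.35), Yars2 (0.29), Hars2 (0.25) and Mars2 (0.21). The rises of Hars2, Mars2 and Sars2 were lost in 4, 5 and 2 of the 6 fits without 1 library. Iars2, the mitochondrial isoleucyl enzyme, went from 24.96, 26.3 and 25.9 CPM at 0 h to 46.01, 46.7 and 41.5 CPM at 48 h, and Tars2, the mitochondrial threonyl enzyme, from 44.9, 44.1 and 47.5 CPM to 82.9, 79.9 and 81.3 CPM. Neither gene's groups overlapped. The limit given above for Iars2, exons shared with genes on the opposite strand, holds for its changes in time as well.

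**Figure D3:**
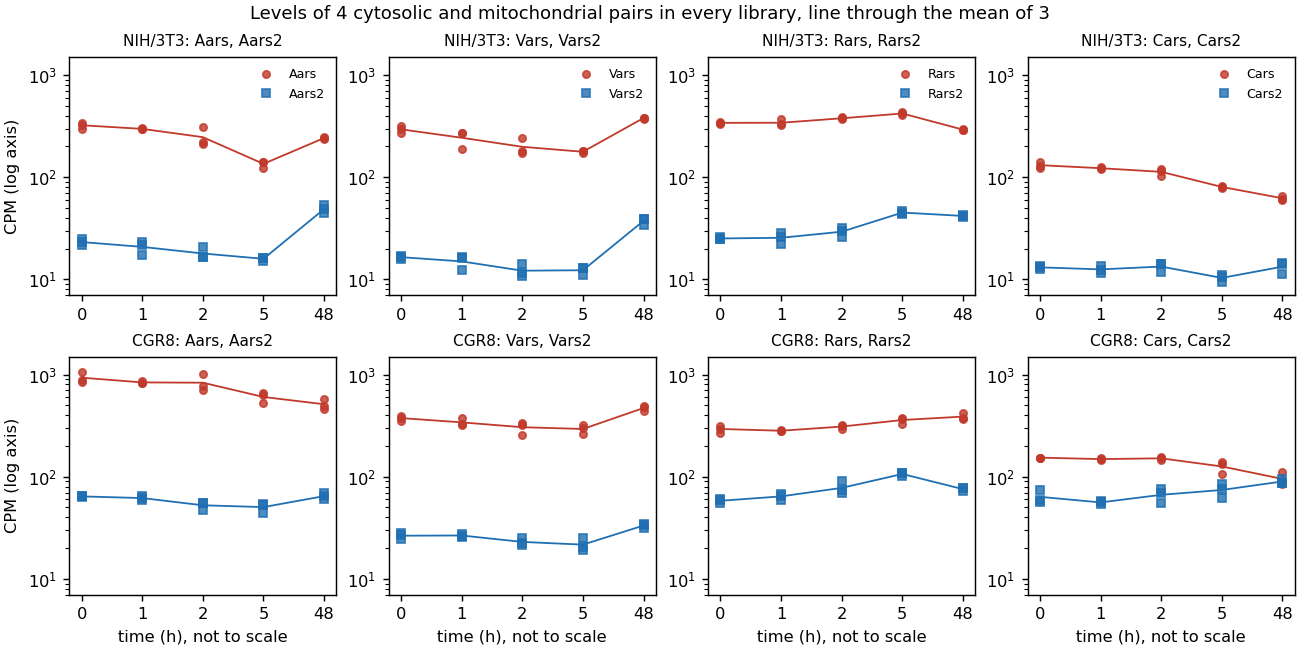
Level in CPM (log axis) of the cytosolic (red circles) and mitochondrial (blue squares) synthetase of alanine, valine, arginine and cysteine in every NIH/3T3 (top) and CGR8 (bottom) library, by hours in cycloheximide (not to scale), lines through the means of 3. In NIH/3T3 Aars2 and Vars2 dip to 5 h and stand highest at 48 h, and Rars and Rars2 are both highest at 5 h; levels of different genes are not corrected for length.

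In CGR8, 6 mitochondrial members rose and 3 fell at 5 h, with a median log2 change of 0.23, beside 24.9% of all genes higher and 27.2% lower. Mars2 went from 25.6, 24.01 and 24.03 CPM at 0 h to 38.5, 53.2 and 51.1 CPM at 5 h (log2 fold change 0.90, SE 0.12, adjusted p = 1.95e-05). Rars2 went from 55.5, 60.05 and 58.8 CPM to 109, 102 and 108 CPM (log2 fold change 0.82, SE 0.10, adjusted p = 1.58e-05). Hars2 went from 27.5, 21.4 and 28.1 CPM to 47.2, 34.03 and 42.6 CPM (log2 fold change 0.63, SE 0.15, adjusted p = 0.00216). All 3 rose without overlap, as they did in NIH/3T3. The other rises were Fars2 (0.59), Yars2 (0.51) and Ears2 (0.48). Wars2, the mitochondrial tryptophanyl enzyme, fell, from 11.4, 10.5 and 12.04 CPM to 7.97, 7.96 and 7.54 CPM (log2 fold change -0.59, SE 0.11, adjusted p = 0.00037). Aars2 fell from 64.6, 64.8 and 63.1 CPM to 52.5, 54.2 and 44.6 CPM (log2 fold change -0.40, SE 0.10, adjusted p = 0.00365), overlapping its 2 h libraries at 55.4, 54.9 and 47.3 CPM. Its 2 h fall (-0.31) was lost without any 1 of the 0 h replicates or 2 h replicate C, and under RLE scaling, no filter and a fit of the 2 groups alone. Vars2 (-0.35) was the third to fall, a call lost without 0 h replicate A or 5 h replicate B or C, without the filter and in a fit of the 2 groups alone.

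At 48 h in CGR8, 7 mitochondrial members were higher and 0 lower by edgeR, with 7 higher and 1 lower at an unadjusted p under 0.05, and a median log2 change of 0.21. Of all genes 12.2% were higher and 15.6% lower. Yars2 stood at 47.1, 44.4 and 47.6 CPM at 0 h and 61.4, 70.6 and 64.99 CPM at 48 h (log2 fold change 0.49, SE 0.10, adjusted p = 0.00195). Cars2 stood at 56.3, 74.7 and 59.6 CPM at 0 h and 87.3, 95.6 and 86.7 CPM at 48 h (log2 fold change 0.49, SE 0.13, adjusted p = 0.0115), a call lost without 0 h replicate A with an adjusted p of 0.0615. Neither gene's 48 h libraries overlapped those at 0 h. Iars2 (0.49), Mars2 (0.47), Rars2 (0.37), Ears2 (0.34) and Vars2 (0.32) also rose. The Vars2 call was lost in all 6 fits without 1 library, under library size scaling and without the filter, the Ears2 call in 5 of the 6 and without the filter, and the Rars2 call in 3 of the 6. Aars2, at 59.9, 69.2 and 64.7 CPM, overlapped its 0 h libraries and did not pass the test (log2 change -0.00, SE 0.10). The mitochondrial count became 3 without 0 h replicate A and 4 without 48 h replicate B or C, and the cytosolic count of 8 became 5 without 0 h replicate B.

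Lars2 varied widely between libraries. In CGR8 it stood at 139, 168 and 129 CPM at 0 h, 90.3, 89.4 and 85.9 CPM at 1 h, 92.02, 77.3 and 75.8 CPM at 2 h, 161, 317 and 164 CPM at 5 h and 127, 87.7 and 142 CPM at 48 h. The 1 h and 2 h libraries lay below those at 0 h, 5 h replicate B lay far above the others, and 48 h overlapped 0 h. The fall at 2 h (log2 fold change -0.85, SE 0.22, adjusted p = 0.015) was lost without 2 h replicate C, and the 5 h change did not pass the test (log2 fold change 0.50, SE 0.22, adjusted p = 0.0655). In NIH/3T3 Lars2 stood at 113, 106 and 98.8 CPM at 0 h and 85.5, 66.9 and 67.9 CPM at 5 h, a fall (log2 fold change -0.50, SE 0.16, adjusted p = 0.016) that was lost without 0 h replicate A or 5 h replicate B or C. Gm15564, a gene listed here with rRNA-like transcripts and sharing no exon with Lars2, moved beside it at some times. In CGR8 Gm15564 stood at 4.88, 9.35 and 4.34 CPM at 0 h, 2.67, 2.46 and 3.19 CPM at 1 h and 11.1, 16.5 and 8.04 CPM at 5 h. In NIH/3T3 it stood at 3.26, 4.29 and 3.70 CPM at 0 h and 2.52, 1.01 and 1.42 CPM at 5 h. At other times the 2 genes parted. At 48 h in NIH/3T3 Gm15564, at 2.20, 2.38 and 2.51 CPM, lay below its 0 h libraries. Lars2, at 89.1, 104 and 98.2 CPM there, overlapped its own 0 h libraries. At 2 h in CGR8 Gm15564 stood at 4.90, 1.66 and 3.49 CPM, with replicate A inside its 0 h range. The highest library of both genes was CGR8 5 h B. What this partly shared movement contributed to the Lars2 values was not tested.

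**Figure D4:**
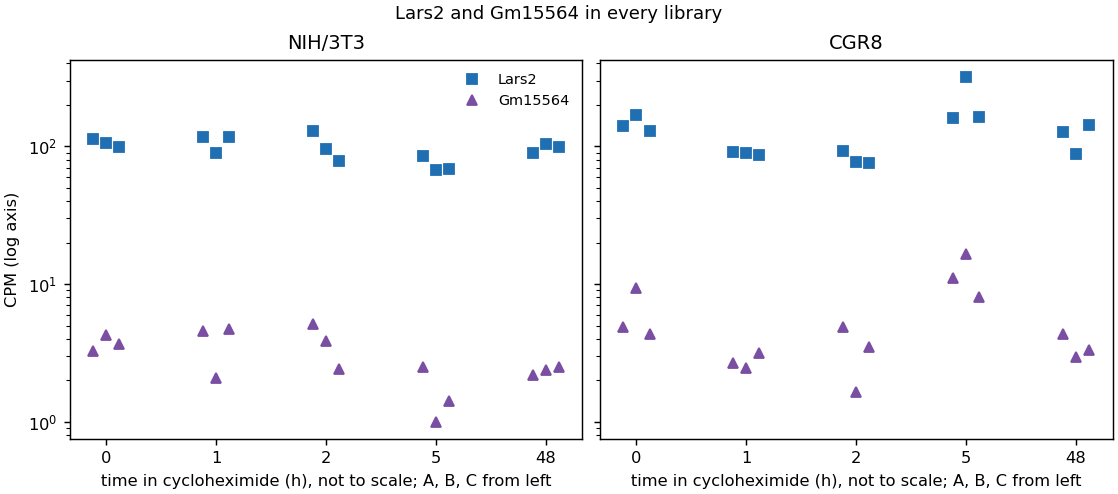
Level in CPM (log axis) of Lars2 (blue squares) and Gm15564 (purple triangles) in every library, replicates A, B and C from left to right at each time in cycloheximide (h, not to scale), in NIH/3T3 (left) and CGR8 (right). Both genes have their highest value in CGR8 5 h replicate B, at 317 and 16.5 CPM.

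Paired by amino acid, the cytosolic member had the more negative change in most pairs. Pairing Eprs with both Ears2 and Pars2, and Fars2 with both Farsa and Farsb, gave 17 pairs. At 5 h the cytosolic change was the lower in 15 of 17 pairs in NIH/3T3, with a median difference of -0.56 on the log2 scale and a range of -1.20 to 0.31, and in 15 of 17 in CGR8, with a median of -0.52 and a range of -1.04 to 0.36. At 48 h it was lower in 15 of 17 pairs in NIH/3T3, with a median of -0.81, and in 12 of 17 in CGR8, with a median of -0.19. The 5 h and 48 h values of a line share its 0 h libraries, and the pairs share genes, so these are descriptions without a test. The pair with the widest gap at 5 h in NIH/3T3 was Mars and Mars2, at -0.37 and 0.82. In CGR8 it was again Mars and Mars2, at -0.14 and 0.90. Lars and Lars2 went the other way in NIH/3T3, at -0.19 and -0.50. The alanyl pair fell together at 5 h in both lines, Aars by more than Aars2.

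**Figure D5:**
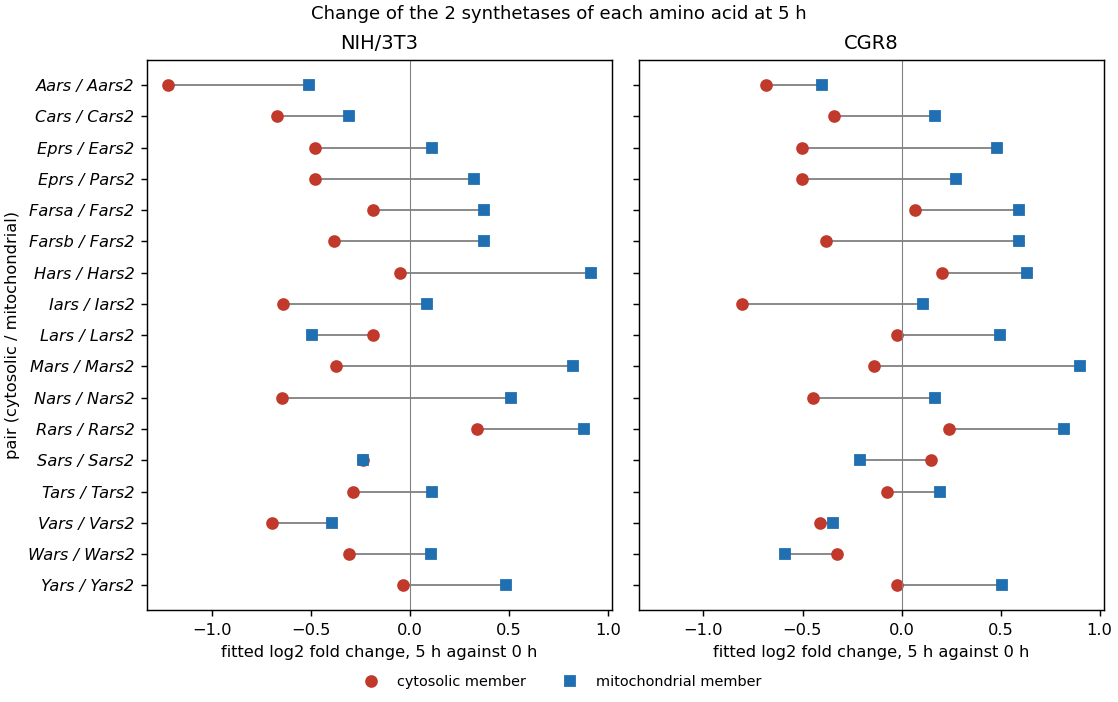
Fitted log2 fold change at 5 h against 0 h of the cytosolic (red circle) and mitochondrial (blue square) synthetase of each amino acid, joined by a line, in NIH/3T3 (left) and CGR8 (right). The red circle lies to the left of the blue square in 15 of 17 pairs in each line; Eprs and Fars2 each appear in 2 pairs.

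Between 5 h and 48 h the members were compared directly. In NIH/3T3, 5 cytosolic members were higher and 6 lower at 48 h than at 5 h, and 6 mitochondrial members higher and 5 lower, beside 65.6% of all genes called, 34.1% higher and 31.4% lower. Vars (1.03 (SE 0.13, adjusted p = 5.03e-06)) and Aars (0.78 (SE 0.12, adjusted p = 3.08e-05)) were the cytosolic members with the largest rises from 5 h, and Gars (-0.65 (SE 0.11, adjusted p = 0.000117)) and Rars (-0.59 (SE 0.08, adjusted p = 4.87e-06)) had the largest falls. Aars2 (1.56 (SE 0.12, adjusted p = 2.03e-08)) and Vars2 (1.54 (SE 0.12, adjusted p = 3.36e-08)) had the largest rises among the mitochondrial members, while Hars2 (-0.66) and Mars2 (-0.61) fell back from 5 h. In CGR8, 5 cytosolic members were higher and 4 lower, and 5 mitochondrial members higher and 6 lower, beside 57.5% of all genes called, 28.9% higher and 28.6% lower. Vars (0.73 (SE 0.12, adjusted p = 6.86e-05)), Iars (0.69 (SE 0.12, adjusted p = 0.000127)) and Eprs (0.66 (SE 0.11, adjusted p = 0.000152)) rose most from 5 h in that line among the cytosolic members, and Sars (-0.74 (SE 0.15, adjusted p = 0.000677)) fell most. The median change of the cytosolic members in NIH/3T3 was -0.10, and -0.12 and -0.02 under RLE and library size scaling. The mitochondrial median in NIH/3T3 and both medians in CGR8 turned sign with the scaling, so no direction is given for these. Paired by amino acid, the cytosolic change from 5 h to 48 h was the lower in 11 of 17 pairs in NIH/3T3, with a median difference of -0.29. In CGR8 it was the higher in 13 of 17 pairs, with a median difference of 0.20, opposite to the CGR8 pairs against 0 h. These pairs were not tested.

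The lines were compared in their responses by an interaction term over all 30 libraries. At 1 h 0 of 36 members differed by edgeR, with 1 at an unadjusted p under 0.05 and 0 by DESeq2, beside 0.160% of all genes called (0.0171% higher, 0.142% lower). At 2 h 1 member differed, beside 2.02% of all genes, 0.866% higher and 1.16% lower in CGR8. That was Pars2, the mitochondrial prolyl enzyme, at 18.1, 18.1 and 16.7 CPM at 0 h and 32.1, 27.96 and 27.5 CPM at 2 h in CGR8, and 8.97, 9.0001 and 10.4 CPM and 8.28, 8.22 and 9.49 CPM in NIH/3T3. It rose in CGR8 and its groups overlapped in NIH/3T3 (log2 difference 0.85 (SE 0.16, adjusted p = 0.0021)). At 5 h 7 members differed, beside 13.3% of all genes (8.18% higher, 5.09% lower), and at 48 h 8, beside 21.9% (9.78% higher, 12.1% lower). The share of the 36 members called at 48 h is close to that of all genes. Differences below are CGR8 minus NIH/3T3 on the log2 scale.

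At 5 h the members that differed were Aars (0.63 (SE 0.19, adjusted p = 0.0265)), Cars (0.42) and Qars (0.40) of the cytosolic enzymes and Lars2 (1.08 (SE 0.29, adjusted p = 0.0118)), Cars2 (0.57), Ears2 (0.46) and Wars2 (-0.60) of the mitochondrial ones. This count was 2 under RLE scaling and under library size scaling, the second of which moved the median interaction of all genes by -0.19, and the 2 left were mitochondrial. It was 1 without NIH/3T3 0 h replicate C or without CGR8 5 h replicate B, 2 without NIH/3T3 5 h replicate B, CGR8 0 h replicate A or C, or CGR8 5 h replicate A, 3 without NIH/3T3 5 h replicate C, 4 without NIH/3T3 0 h replicate A or 5 h replicate A, and 11 without CGR8 5 h replicate C. None of the 7 calls held in every fit without 1 library. The Lars2 difference was lost without CGR8 5 h replicate B alone, with an adjusted p of 0.19, and the Aars difference in 6 of 12 such fits.

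At 48 h the differences held better. Aars2 (-1.06 (SE 0.15, adjusted p = 8.83e-06)), Vars2 (-0.85 (SE 0.16, adjusted p = 0.000357)) and Tars2 (-0.62 (SE 0.13, adjusted p = 0.000865)) had higher changes in NIH/3T3 than in CGR8, and all 3 were called in every fit without 1 library and under every other alternative. Rars (0.62 (SE 0.12, adjusted p = 0.000212)), Farsb (0.56 (SE 0.15, adjusted p = 0.00652)), Qars (0.56 (SE 0.13, adjusted p = 0.00216)), Hars (0.55 (SE 0.16, adjusted p = 0.0125)) and Cars (0.38 (SE 0.13, adjusted p = 0.0363)) had lower changes in NIH/3T3 than in CGR8. Rars rose in CGR8 and fell in NIH/3T3 at this time, the NIH/3T3 call being lost without the filter on low counts. The Hars difference was lost without CGR8 48 h replicate B. The Cars difference was lost in 5 fits without 1 library, of NIH/3T3 0 h replicate C, 48 h replicate B or C, CGR8 0 h replicate A or 48 h replicate A.

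Scaffold genes and genes around tRNA charging were followed beside the members. The scaffold and accessory proteins of the multi-synthetase complex are encoded by Aimp1, Aimp2 and Eef1e1. In CGR8 all 3 rose at 5 h, by 0.49, 0.69 and 0.69 on the log2 scale, beside 24.9% of all genes higher and 27.2% lower. Of the 8 enzymes of the complex, 2 fell and 2 rose there. In NIH/3T3 Aimp1 (0.49) and Eef1e1 (0.55) rose at 5 h, Aimp2 did not pass the test (0.35), and at 48 h Aimp2 (-0.40) and Eef1e1 (-0.74) fell. Of the 8 enzymes, 5 fell and 2 rose at 5 h in that line. Of all genes 24.0% were higher and 27.1% lower at 5 h there, and 26.7% and 25.6% at 48 h. Of 4 genes of uncharged-tRNA sensing, 3 fell at 5 h in each line, read against the same 5 h shares of all genes. The 3 were Eif2ak4, which encodes GCN2, its coactivator Gcn1 and the GCN2 inhibitor Impact. The fourth, Eif2s1, which encodes the subunit of eIF2 that GCN2 phosphorylates, rose (0.81 in NIH/3T3 and 0.86 in CGR8). At 48 h in NIH/3T3 Gcn1 (0.61) and Impact (0.57) were higher than at 0 h and Eif2s1 (-0.66) lower. In CGR8 at 48 h 0 of the 4 were called by edgeR, with Eif2ak4 at an unadjusted p of 0.0152, beside 27.8% of all genes called.

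Most listed genes of the ATF4 programme outside the synthetases fell in both lines. Of 31 listed genes of ATF4 and of amino-acid synthesis and uptake, 30 were tested in NIH/3T3, where 20 fell and 3 rose at 5 h and 21 fell and 5 rose at 48 h, and 31 in CGR8, where 20 fell and 2 rose at 5 h and 23 fell and 1 rose at 48 h. Of all genes, 27.1% fell and 24.0% rose at 5 h and 25.6% fell and 26.7% rose at 48 h in NIH/3T3, and 27.2%, 24.9%, 15.6% and 12.2% in the same order in CGR8. The median log2 change at 5 h over the list was -0.58 in NIH/3T3 and -0.95 in CGR8. Atf4 itself rose at 5 h in NIH/3T3 (0.71) and fell in CGR8 (-1.07). The largest falls at 5 h were those of the transporter genes Slc7a3 in NIH/3T3 (-1.97) and Slc6a9 in CGR8 (-4.96). Trib3, a known ATF4 target that feeds back on it, fell in both lines (-1.94 and -2.92), and so did Mthfd2 (-1.31 and -1.41), a mitochondrial one-carbon enzyme.

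Genes that work with the mitochondrial synthetases were mixed. Of 13 partners in mitochondrial translation, 4 rose and 3 fell at 5 h in NIH/3T3, and 6 rose and 0 fell in CGR8, beside 24.0% and 27.1% of all genes in NIH/3T3 and 24.9% and 27.2% in CGR8. The NIH/3T3 shares are close to those of all genes. At 48 h 2 were higher and 4 lower in NIH/3T3, and 4 higher and 1 lower in CGR8. Of all genes 26.7% were higher and 25.6% lower at 48 h in NIH/3T3, and 12.2% and 15.6% in CGR8. Mtrf1, which encodes a mitochondrial release factor, had the largest rise at 5 h in both lines (0.79 and 1.00), and Tufm, the mitochondrial elongation factor Tu, fell in NIH/3T3 (-0.47) and did not pass the test in CGR8 (-0.33). Gatb, a subunit of the amidotransferase that makes mitochondrial glutaminyl-tRNA, rose in both (0.41 and 0.79). Of 11 listed genes of tRNA maturation and proofreading, 10 were tested. At 5 h 4 of them rose in NIH/3T3 and 5 in CGR8, with 0 falling in either, read against the same 5 h shares of all genes. The largest rises were Trnt1, which adds the CCA end, in NIH/3T3 (0.72) and Ptrh2, a peptidyl-tRNA hydrolase, in CGR8 (0.99). At 48 h in NIH/3T3, 4 of the 10 tested were lower and 1 higher. In CGR8 2 were lower and 1 higher, and both are read against the 48 h shares of all genes.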

How the data were processed

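Gene-level RNA counts of 30 libraries were analysed. The authors deposited them as 1 table of raw counts with Ensembl identifiers, and the submitters' processing notes name STAR, DESeq2 and GRCm39 without versions or roles; the counting tool, its use of strand and the annotation release are not given in the sources used here. Symbols came from GENCODE M21 for 51880 of 57186 identifiers (90.7%), the reference here being GRCm38, and promoter windows from RefSeq. Symbols, exon overlaps and lengths are therefore those of another build than the counts.

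Counts were tested with edgeR 4.0.16 in R 4.3.3 (quasi-likelihood F test, TMM factors, filterByExpr at min.count 10 and min.total.count 15), over the 15 libraries of a line for comparisons in time and over all 30 for comparisons between lines. P-values were Benjamini-Hochberg adjusted over all genes tested, and a gene was called under 0.05. The SE is the log2 fold change divided by the square root of F. Levels are CPM from TMM-scaled totals, and log2 CPM used a prior count of 2. No p was computed over the members as a list. Exact permutation of 3 against 3 libraries cannot give a p below 0.1 and was not used.

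Members, gene lists and tests were chosen with earlier results of these data known. Members named with every library's value were the 3 with the largest called changes at 5 h and 2 at 48 h per line and compartment, called members that went against most of their compartment, and the largest differences between the lines; the Gars, Iars2, Tars2 and Rars values at further times, and other members given by log2 change alone, were chosen after values were seen. Tested on simulated counts for the 5 h comparison, the edgeR step recovered 39.7% of genes changed by 0.5, 81.5% by 1 and 98.4% by 2 on the log2 scale in NIH/3T3, with 4.03% false calls. In CGR8 it recovered 47.9%, 75.0% and 96.7%, with 7.10% false calls. The simulated spread came from a fixed formula, not from these data, and far fewer genes were changed than were called at 5 h. These rates therefore need not hold for the measured counts. Alternatives were RLE and library size scaling, DESeq2 1.42.0, limma 3.58.1 voom with quality weights, other filters, the compared groups alone, a replicate block and leaving out each library. Replicates of a group differed beyond counting noise in all 30 pairs (lowest chi-square per degree of freedom 1.75). Protein sequences were not used here.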

Additional observations from a re-analysis of the deposited data

Results flagged for a closer look

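These values were set apart because the interaction term gave a difference between the lines in the same contrast, edgeR adjusted p under 0.05. All are log2 differences, CGR8 minus NIH/3T3. In the 2 h response 1 member differed, beside 2.02% of all genes. That was Pars2 (0.85), which rose in CGR8 and did not pass the test in NIH/3T3. In the 5 h response 7 members differed, beside 13.3% of all genes, and none of the 7 calls held in every fit without 1 library. Lars2 (1.08) and Aars (0.63) had the largest named differences in their compartments. Aars fell in both lines and by more in NIH/3T3. In the 48 h response 8 members differed, a share close to the 21.9% of all genes called there. Among them was Aars2 (-1.06), which rose in NIH/3T3 and did not pass the test in CGR8. Vars2 (-0.85) rose in both lines and by more in NIH/3T3, its CGR8 call being lost in all 6 fits without 1 library.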

How the results depend on the processing

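No call of a member reversed under any alternative run, and of 195 calls 182 held under RLE scaling, 182 under library size scaling, 185 with DESeq2, 159 without the filter on low counts, 187 with a mean of at least 5 CPM, 193 with voom quality weights and 174 in fits of the compared groups alone. The replicate block, in which the letters A, B and C pair libraries, lost 3 calls and gave 1 cytosolic call at 2 h in CGR8 in place of 0; same-letter deviations correlated at -0.58 to 0.42 and in 0 of 10 comparisons were all 3 above 0.1, so the letters were not used for pairing. Counts that moved by over 1.5 times follow, and the cause was not tested. With voom quality weights, 1 h counts in NIH/3T3 were 4 cytosolic and 3 mitochondrial and in CGR8 4 mitochondrial, 2 h counts were 15 and 9 in NIH/3T3 and 4 cytosolic in CGR8, CGR8 counts were 14 mitochondrial at 5 h and 14 cytosolic at 48 h, and line differences were 20 at 5 h and 21 at 48 h. With the compared groups alone, 2 h counts were 4 and 3 in NIH/3T3 and 4 mitochondrial in CGR8, the CGR8 1 h mitochondrial count was 1, and line differences were 3 at 5 h and 14 at 48 h. Without the filter, mitochondrial counts were 3 at 2 h and 6 at 48 h in NIH/3T3 and 1 at 1 h in CGR8, and line differences were 1, 2 and 2 at 1, 2 and 5 h. DESeq2 gave 8 mitochondrial calls at 2 h in NIH/3T3, 3 cytosolic at 2 h in CGR8 and 3 line differences at 5 h. The 5 CPM filter gave 8, 2 and 3 for the same results. Library size scaling gave 1 cytosolic call at 2 h in CGR8, and it and RLE scaling each gave 2 line differences at 5 h. The median over cytosolic members minus that over mitochondrial members stayed negative at 1, 2, 5 and 48 h in both lines under all of these; with Lars2 left out, an alternative added after seeing the data, it was -0.41 at 5 h in NIH/3T3 and -0.30 in CGR8. Library size scaling moved the median of all genes at 5 h in CGR8 by -0.10, and the mitochondrial median at 2 h in NIH/3T3 and the cytosolic median at 48 h in CGR8 changed sign under it. Leaving out 1 library at a time gave 4 to 11 cytosolic and 2 to 7 mitochondrial calls at 2 h in NIH/3T3, 7 to 10 mitochondrial calls at 5 h, and median differences of -0.49 to -0.40 at 5 h and -0.67 to -0.60 at 48 h. In CGR8 it gave 0 to 4 cytosolic and 3 to 8 mitochondrial calls at 2 h, 5 to 8 and 3 to 6 at 48 h with median differences of -0.31 to -0.18, and 1 to 11 line differences at 5 h. Depth was 18.2 M to 30.5 M counts.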
